A study of Mus musculus with 18 samples.

Results

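Solute carriers are membrane proteins that move ions, nutrients, metals and metabolites across the cell surface and across the membranes of organelles, and their genes are numbered by family under the symbol Slc. Here they are followed as RNAs bound by Ago2 in the colonic epithelium of mice with wild-type or oncogenic K-Ras. The members are all merged Ago2 peaks whose target gene, as labelled by the authors, starts with Slc and a digit, or with Slco and a digit. There were 183 such peaks among 5554 merged peaks, of which 5448 carried a gene label. The 183 peaks lay in 67 of the 2568 labelled genes, from 31 numbered families, and 1 of them was an Slco peak (Slco2a1). In 33 of the 67 genes there was 1 peak, and Slc26a2 held 28, Slc38a2 12 and Slc40a1 10.

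Ago2 is the protein that carries a miRNA to its target RNA, and the pairing rests mainly on the seed, bases 2 to 8 of the miRNA. A bound mRNA is usually translated less or degraded faster, so an Ago2 peak marks a stretch of RNA on which a loaded Ago2 sat at the moment of crosslinking. Colonocytes absorb sodium, chloride, water and short-chain fatty acids and secrete bicarbonate, work done largely by carriers of the Slc4, Slc9, Slc12, Slc16 and Slc26 families.

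The assay, HEAP, pulls down Ago2 through a fused Halo tag after UV crosslinking of tissue (400 mJ per cm2, 3 exposures). The control mice were Halo-Ago2/+; Fabp-Cre/+ (called WT here), and the experimental mice also carried K-Ras-G12D/+ (called G12D). All were C57BL/6 mice aged 8 to 12 weeks, so the tagged Ago2 allele and the Cre transgene, named for the Fabp promoter, were shared by both groups. Epithelium was scraped from the distal colon with a blade, an enrichment and not a cell sort. Each genotype had 3 mRNA libraries and 3 miRNA libraries. The 6 input libraries were not analysed here, so a change in a peak cannot be told apart from a change in the amount of its transcript, and in bulk tissue fewer cells of a type and less RNA per cell cannot be told apart either. Nothing in the labels ties a library to a separate animal, and p-values therefore measure the spread between these libraries, which may be technical. The peak files hold no allele calls, so the genotype of each library rests on its label.

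The mRNA libraries differed in depth in step with genotype. Merged peaks held 54401 to 148770 reads in WT libraries and 148927 to 723937 in G12D libraries, so that 1 read was worth 1.29 to 2.90 normalized reads in WT and 0.206 to 1.09 in G12D. The part that depth plays in the results below was not tested. Of 17 colonocyte and goblet cell markers 16 had peaks, summing to 12358 to 13211 normalized reads in WT and 10061 to 12400 in G12D. That sum hides single peaks that moved both ways. By the limma test described below, 49 of 101 tested peaks of these markers (48.5%) were higher in G12D and 11 (10.9%) lower. Of all tested peaks 36.2% were higher and 12.7% lower. None of 10 smooth muscle and fibroblast markers and none of 10 blood cell and endothelial markers had a peak, and 2 of 6 neural and enteroendocrine markers did, at 0 to 11.6 normalized reads in WT and 14.03 to 27.3 in G12D.

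The miRNAs most often matched in these peaks are shown here because the sites are grouped by their seeds later. The authors' table marked a match to all of seed bases 2 to 8 in 118 of the 183 Slc peaks, 64.5%, beside 59.7% of all labelled peaks. In 53 Slc peaks the match was 8 bases long, with an A opposite the first base of the miRNA, and 24 peaks held matches to more than 1 family. Below, a 7-base match means bases 2 to 8. The mature sequences are from RefSeq (GRCm38.p6), 5′ to 3′, with the seed in capitals, for the most abundant miRNA of each of the 8 families with most Slc peaks, followed by miR-30e-5p and miR-7a-5p, whose families match peaks of Slc36a1 and Slc38a2.
let-7b-5p: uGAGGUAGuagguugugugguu
miR-22-3p: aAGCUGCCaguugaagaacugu
miR-16-5p: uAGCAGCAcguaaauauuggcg
miR-200c-3p: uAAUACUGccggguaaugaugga
miR-24-3p: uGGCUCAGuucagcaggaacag
miR-194-5p: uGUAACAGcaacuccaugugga
miR-93-5p: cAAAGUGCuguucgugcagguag
miR-29a-3p: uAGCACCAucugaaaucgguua
miR-30e-5p: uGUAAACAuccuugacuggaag
miR-7a-5p: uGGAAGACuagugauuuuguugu

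Values below are the authors' normalized reads per peak, 3 libraries per genotype in the order of their replicate numbers. Fold changes are G12D over WT on the scale log2(normalized reads + 1), tested with limma over all peaks with a mean of at least 5, with Benjamini-Hochberg adjustment and a threshold of 0.05. Of the 183 Slc peaks 140 passed that filter. Among them 41 (29.3%) were higher and 16 (11.4%) lower in G12D, and the median log2 fold change was 0.96. Over all 4438 tested peaks 36.2% were higher and 12.7% lower, with a median of 1.05, so the Slc peaks moved much as the whole table did. Of the 43 peaks not tested, 41 had the higher mean in G12D. All 3 G12D libraries lay above all 3 WT libraries in 53 tested Slc peaks (37.9%) and below them in 17 (12.1%), beside 43.9% and 15.2% of all tested peaks.

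The number of rises differed between settings and with each G12D library left out, and so did the share of all tested peaks. Scaling every library to the same total gave 57 Slc peaks higher and 15 lower of 148 tested (38.5% and 10.1%, beside 42.9% and 11.8% of all tested peaks). Quantile normalization gave 22 and 23 (15.7% and 16.4%, beside 19.7% and 18.1%). With edgeR, which changes the test as well as the scaling (TMM), 23 were higher and 26 lower (16.4% and 18.6%, beside 24.6% and 20.1%). DESeq2, which also changes both, gave 23 and 23 (16.4% each, beside 25.5% and 17.4%). In that order the settings moved the median of all tested peaks by 0.24, -0.89, -0.58 and -0.39 on the log2 scale. Leaving out G12D library 1, 2 or 3 left 25, 22 or 21 higher (17.9%, 15.7% and 15.0%, beside 25.7%, 22.0% and 22.3% of all tested peaks). Of the 41 higher peaks 15 had 3 reads or fewer over the 3 WT libraries together, while 2 of the 16 lower peaks were that low in G12D. Peaks that low in a genotype passed the filter only through the other genotype, so the direction of their calls was set by the filter. By the p-values of the authors' deposited table, 58 Slc peaks were higher and 20 lower at the same threshold, beside 37.9% and 11.6% of all peaks with a p-value there. Of these, 51 were called in the same direction by limma.

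The authors' peak lists, made from the same libraries, split the members much as they split all merged peaks. In the G12D list alone there were 146 Slc peaks (79.8%, beside 77.0% of all merged peaks). Both lists held 28 (15.3%, beside 15.0%) and the WT list alone 9 (4.92%, beside 8.01%). Of the 28 peaks in both lists 5 were higher and 8 lower, beside 13.9% and 25.6% of all such peaks, and their median log2 fold change was -0.39. Of the 103 tested peaks of the G12D list alone 36 were higher and 0 lower (47.0% and 0.663% of all such peaks), and of the 9 of the WT list alone 0 were higher and 8 lower (0.676% and 74.3% of all such peaks). List membership was called on these libraries, so these counts describe and do not test. By position, 103 peaks lay in 3′ UTRs, 49 in exons, 12 in introns and 11 in 5′ UTRs, and 8 carried a UTR class marked with an asterisk whose meaning is not given in the sources used here. Of the 79 tested 3′ UTR peaks 21 were higher and 4 lower, beside 37.7% and 6.81% of all such peaks. Of 37 exon peaks 12 were higher and 6 lower (28.7% and 18.6% of all exon peaks), of 7 intron peaks 3 and 2 (65.5% and 17.8%), and of 9 peaks in 5′ UTRs 2 and 2 (33.1% and 16.5%).

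**Figure D1:**
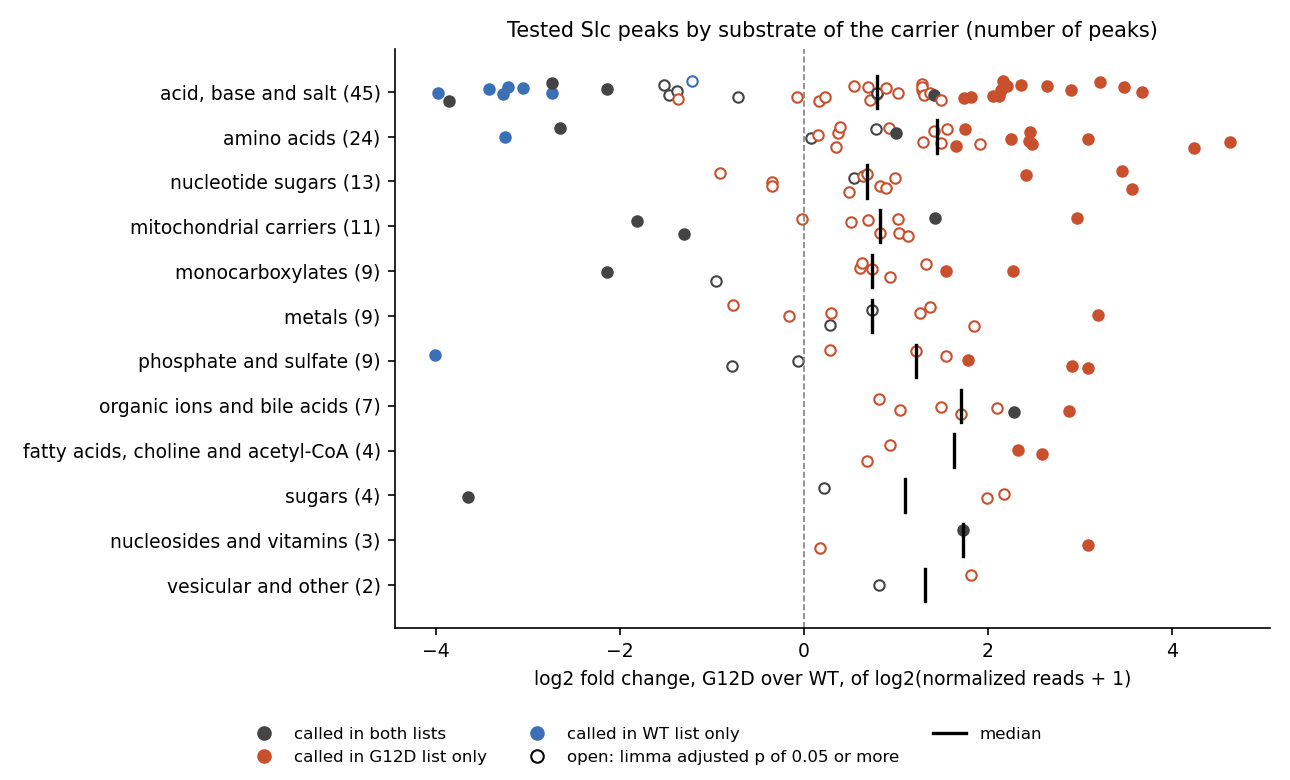
Log2 fold change (x axis, G12D over WT) of the 140 tested Slc peaks, grouped by what the carrier family moves, with the number of peaks in brackets. Each point is a peak coloured by the authors' list it was called in, filled where the limma adjusted p was under 0.05, and the black bar is the group's median. Filled peaks of the WT list alone all lie left of 0 and filled peaks of the G12D list alone all lie right of 0.

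Counts by carrier list, here and below, stand beside 36.2% higher and 12.7% lower over all 4438 tested peaks. Amino acid and related carriers had 24 tested peaks in 12 genes, of which 10 (41.7%) were higher and 2 (8.33%) lower, near those shares. Slc7a7, the light chain of the y+LAT1 exchanger that passes cationic amino acids out of epithelial cells, had an exon peak (chr14:54374593-54374643, GRCm38) with 2.12, 5.80 and 0 normalized reads in WT and 67.6, 43.9 and 45.96 in G12D. All G12D libraries lay above all WT libraries (log2 fold change 4.25, SE 0.69, limma adjusted p = 0.000681). The peak held a let-7 match of 7 bases. The WT value rests on 3 reads, and the depth-scaled ratio of pooled reads was 25.1 with a 95% interval of 8.53 to 122.5 that covers counting error only. Its partner chain Slc3a2, tested at a 3′ UTR peak with an 8-base miR-194-5p match, rose from 2.12, 5.80 and 3.87 to 12.0, 13.2 and 20.1 (1.75, SE 0.61, limma adjusted p = 0.0321). That call was lost in 9 of 16 alternatives, among them edgeR, DESeq2 and the removal of any 1 G12D library, with adjusted p up to 0.267.

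Slc6a14, which takes up neutral and cationic amino acids with sodium and chloride, had an exon peak at 4.25, 5.80 and 1.29 in WT and 14.2, 18.8 and 28.01 in G12D (2.25, SE 0.63, limma adjusted p = 0.0123). Slc15a1, the intestinal peptide transporter PEPT1, went from 0, 0 and 2.58 to 14.2, 12.0 and 10.1 at a 3′ UTR peak (limma adjusted p = 0.00324). Only 2 WT reads stand behind that peak, and the depth-scaled ratio was 9.45 (95% interval 2.54 to 79.3). Slc6a8, the creatine transporter, was called higher at both of its peaks, each on 3 WT reads or fewer. The 5′ UTR peak (1.66) lost its call in 10 of 16 alternatives, with adjusted p up to 0.771. The 3′ UTR peak (2.45) held 0, 0 and 2.58 in WT and 3.27, 19.2 and 5.75 in G12D and lost it in 6, with adjusted p up to 0.638. G12D library 2 was the highest there, and without it the depth-scaled ratio went from 11.6 to 3.79.

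The 5′ UTR peak of Slc3a1, the rBAT chain of the cystine and dibasic amino acid transporter, did not separate the genotypes. It carried a 7-base let-7 match and held 354.5, 241 and 336 normalized reads in WT and 228, 261 and 561 in G12D. The groups overlapped, and the log2 fold change of 0.07 (SE 0.40) had a limma adjusted p of 0.887. Library 3 of G12D was the highest of the 6.

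Acid, base and salt carriers had 45 tested peaks in 11 genes, with 14 higher and 9 lower. Slc26a2 alone, a sulfate and anion exchanger placed in this list by its family number, supplied 23 of these peaks. Its peaks made up 8 of the rises and 4 of the falls. Slc12a7, the potassium-chloride cotransporter KCC4, had an intron peak at 2.12, 0 and 0 in WT and 14.2, 9.90 and 14.4 in G12D, which rests on 1 WT read (depth-scaled ratio 18.0, 95% interval 3.14 to 720.4).

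Slc4a2, the basolateral chloride-bicarbonate exchanger AE2, fell at its exon peak from 53.1, 8.69 and 54.1 to 3.27, 3.92 and 15.1 (by 2.14 on the log2 scale, SE 0.76, limma adjusted p = 0.0350). WT library 2 lay within the G12D range, and the call was lost in 6 of 18 alternatives. Slc4a7, a sodium-bicarbonate cotransporter, rose at a 3′ UTR peak with a let-7 match from 17.0, 26.1 and 11.6 to 50.2, 58.8 and 74.0 (1.74, SE 0.42, limma adjusted p = 0.00523). Slc8b1, which exchanges sodium for calcium across the inner mitochondrial membrane, fell at a 3′ UTR peak with an 8-base let-7 match from 25.5, 28.98 and 30.9 to 0, 9.49 and 7.18 (by 2.74, SE 0.81, limma adjusted p = 0.0159).

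Slc40a1, the iron exporter ferroportin, gave the 1 rise among 9 tested peaks of metal carriers. Its exon peak at chr1:45909679-45909726 went from 4.25, 11.6 and 5.16 to 49.1, 71.4 and 84.7 (3.19, SE 0.48, limma adjusted p = 0.000434). Its strongest peak, an exon peak with an 8-base miR-24-3p match, held 72.2, 98.5 and 108 in WT and 117, 183 and 172 in G12D, with no overlap but with a limma adjusted p of 0.0872. Slc39a4, the zinc importer ZIP4, had 1 peak with a log2 fold change of -0.16 and overlapping groups.

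Slc16a1, the monocarboxylate transporter MCT1 that carries butyrate and lactate, was called higher at 2 of 4 peaks, the weaker of which kept its call in 4 of 16 alternatives. The stronger, an exon peak at chr3:104649482-104649526 with no marked match of 7 bases or more, held 25.5, 28.98 and 37.4 in WT and 111, 149.8 and 203 in G12D (2.27, SE 0.36, limma adjusted p = 0.000563). Slc16a5, a related carrier, fell at an exon peak with an 8-base let-7 match from 84.9, 37.7 and 79.9 to 7.63, 19.6 and 16.5 (by 2.14, SE 0.48, limma adjusted p = 0.00380). Slc5a8, a sodium-coupled monocarboxylate transporter grouped with the sugar families by its number, held 31.8, 58.0 and 54.1 in WT and 42.5, 45.2 and 81.9 in G12D (0.21, SE 0.40, limma adjusted p = 0.671).

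Slc37a2, a phosphate-linked exchanger of glucose 6-phosphate in the endoplasmic reticulum, lost most of its reads. Its only peak, in an exon at chr9:37239684-37239739, held 471, 484 and 249 normalized reads in WT and 22.9, 20.6 and 55.3 in G12D, a 12.2-fold lower mean. The log2 fold change was -3.65 (SE 0.44, limma adjusted p = 0.000215), with wide separation between the groups. The authors' table marks an 8-base miR-29-3p match and a 7-base let-7 match in it.

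Of 3 vitamin carriers with a tested peak 2 rose. Slc46a1, the proton-coupled folate transporter, had an exon peak with an 8-base let-7 match at 2.12, 2.90 and 6.44 in WT and 35.99, 28.5 and 50.3 in G12D (3.09, SE 0.55, limma adjusted p = 0.00107). Slc19a2, a thiamine transporter, rose in its 3′ UTR from 29.7, 23.2 and 46.4 to 107, 109 and 107 (1.73, SE 0.36, limma adjusted p = 0.00270). The other vitamin carrier with a tested peak, Slc23a2 for ascorbate, was not called.

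Of 13 tested peaks of nucleotide sugar carriers, which feed the Golgi with substrates for glycosylation, 3 were higher and 0 lower. All 3 risen peaks were near 0 in WT (means of 0, 0.43 and 1.42). They passed the filter only through their G12D reads, so the direction of these calls was set by the filter. Slc35a2, for UDP-galactose, had a 3′ UTR peak with 0 reads in all WT libraries and 8.72, 15.7 and 9.34 normalized reads in G12D. Its G12D mean was 5.97-fold that of a floor of 3 reads over the WT group, a ratio that allows no error in the G12D mean. Slc35a1, for CMP-sialic acid, had an exon peak at 0, 0 and 1.29 in WT and 6.54, 31.4 and 11.5 in G12D, on 1 WT read (depth-scaled ratio 38.7, 95% interval 6.86 to 1538). The highest value was in G12D library 2, the deepest, and without that library the ratio was 15.2. The other rise, in the 3′ UTR of Slc35d1, had overlapping groups and was lost in 8 of 16 alternatives. The 3′ UTR peak of Slc35d2, with an 8-base let-7 match, held 95.5, 107 and 39.95 in WT and 118, 107 and 102 in G12D and was not called (0.54, SE 0.40, limma adjusted p = 0.271). Slc35c1, for GDP-fucose, had 3 tested peaks in its 3′ UTR and none was called.

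Among 11 tested peaks of mitochondrial carriers 2 rose and 2 fell. Slc25a13, the aspartate-glutamate carrier citrin, rose at an exon peak with let-7 matches from 53.1, 26.1 and 37.4 to 81.8, 130.2 and 99.8 (1.43, SE 0.38, limma adjusted p = 0.00914). Slc25a16 rose on 1 WT read. Slc25a10, the dicarboxylate carrier, fell from 74.3, 28.98 and 42.5 to 14.2, 7.43 and 16.5 (by 1.82, SE 0.49, limma adjusted p = 0.00968). Slc25a3, the phosphate carrier, fell by 1.31 on the log2 scale with overlapping groups (SE 0.49, limma adjusted p = 0.0435), a call lost in 8 of 18 alternatives.

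The remaining lists were small. Slc22a23, an orphan member of the organic ion family, rose in its 3′ UTR at a peak with an 8-base match to the miR-17 family, from 44.6, 14.5 and 20.6 to 117, 119 and 125 (2.29, SE 0.42, limma adjusted p = 0.00135), and at a weaker peak beside it. Slc10a5 was not called at either of its 2 peaks, both of which overlap an intron of another gene model. Slc20a1, a sodium-phosphate cotransporter, rose at an exon peak with a miR-22-3p match from 4.25, 0 and 2.58 to 19.6, 22.1 and 22.98 (3.08, SE 0.71, limma adjusted p = 0.00447). Of 4 tested peaks of choline and acetyl-CoA carriers 2 were called higher, in Slc44a1 (kept in 4 of 16 alternatives) and Slc44a4 (kept in 8), both with overlapping groups, while Slc33a1 was not called. The peak of Slc17a4, at 0, 0 and 2.58 in WT and 10.9, 8.25 and 6.46 in G12D, was too low to test, and Slc9a3r1, the scaffold NHERF1 and not a carrier although its symbol fits the rule, was not called.

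**Figure D2:**
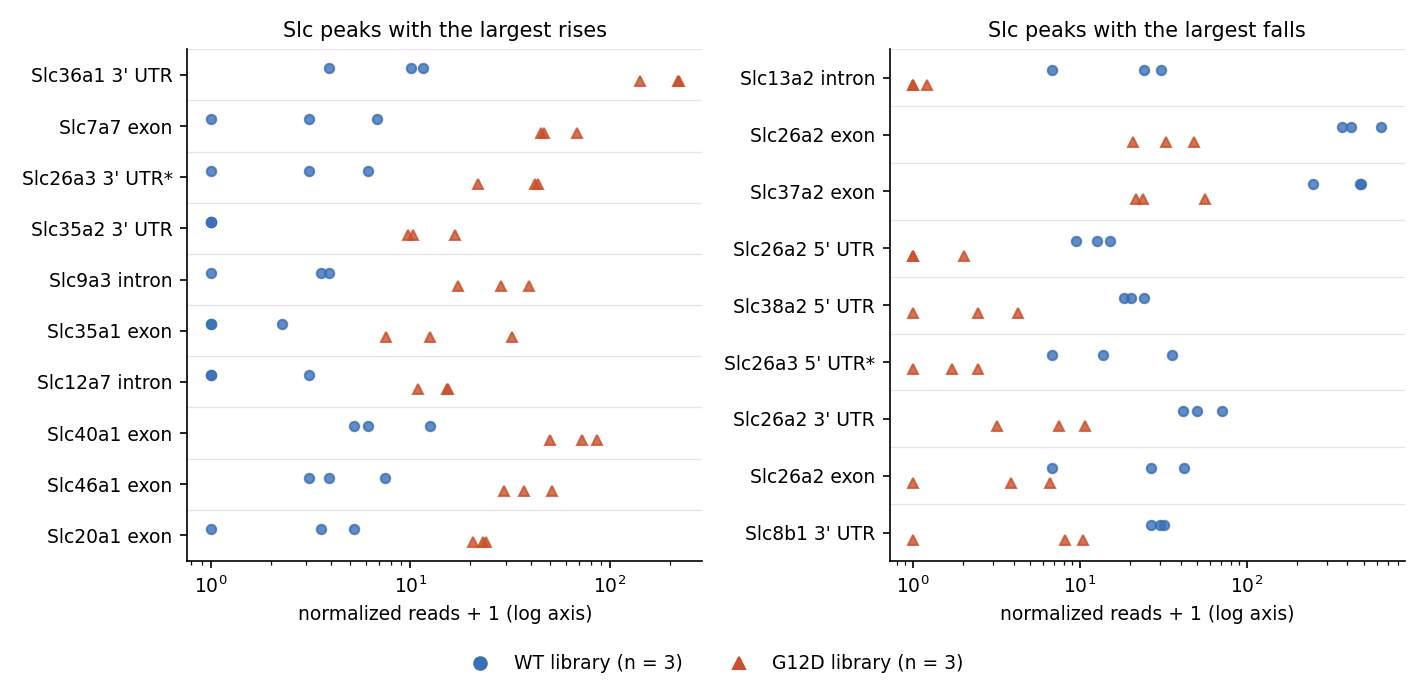
Normalized reads + 1 (x axis, log scale) in each WT library (circles) and G12D library (triangles) for the 10 Slc peaks with the largest rise in log2(normalized reads + 1) (left) and 9 of the 10 with the largest fall (right), among called peaks whose groups do not overlap. Peaks of Slc36a1, Slc26a2 and Slc37a2 pass 100 normalized reads in at least 1 library, and several of the risen peaks have WT libraries at 0 reads (plotted at 1).

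Peaks on the same transcript changed unequally in some Slc genes, as they did in many genes of the whole table. A limma diffSplice F test asked whether the fold changes of a gene's peaks differed, and it passed in 10 of the 23 Slc genes with at least 2 tested peaks, beside 48.9% of all such genes. In 6 of the 23 a peak was higher and another lower, beside 16.0% of all such genes. These were Slc13a2, Slc26a2, Slc26a3, Slc36a1, Slc38a2 and Slc9a3.

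Slc36a1, the proton-coupled amino acid transporter PAT1 of lysosomes and the apical surface, had 2 strong peaks in its 3′ UTR with 776 bases between them (diffSplice adjusted p = 8.51e-05). The upstream peak, chr11:55232949-55233002, held 10.6, 2.90 and 9.02 normalized reads in WT and 141, 221 and 219 in G12D. It had the largest rise of any Slc peak on the log2(normalized reads + 1) scale (4.63, SE 0.47, limma adjusted p = 0.000114) and held no match to all of bases 2 to 8, only matches to bases 2 to 7 followed by an A, for miR-19-3p and for the miR-17 family shown above by miR-93-5p. The downstream peak, chr11:55233779-55233837, held 431, 330.4 and 552 in WT and 50.2, 85 and 71.8 in G12D (a fall by 2.65, SE 0.35, limma adjusted p = 0.000287). It carried 8-base matches to miR-210-3p and to the miR-30 family. The summed reads of the gene, 456, 345 and 602 in WT and 214, 320 and 309 in G12D, did not pass the test (-0.72, SE 0.29, limma adjusted p = 0.0579).

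Slc26a2, a sulfate and anion exchanger, had 23 tested peaks, 8 higher and 4 lower (diffSplice adjusted p = 3.71e-12). Its strongest WT peak, in an exon with a 7-base let-7 match, held 637, 371 and 419 in WT and 19.6, 31.6 and 47.4 in G12D, 14.5-fold lower by the means (-3.86, SE 0.39, limma adjusted p = 0.000114). A 3′ UTR peak with an 8-base miR-27-3p match fell from 40.3, 49.3 and 69.6 to 2.18, 9.70 and 6.46 (by 3.06, SE 0.54, limma adjusted p = 0.00103). Other falls were at an exon peak with a miR-22-3p match (by 2.74) and at a 5′ UTR peak (by 3.27). The 8 risen peaks had log2 fold changes of 1.41 to 2.90, and of these 4 had 5 WT reads or fewer in all. The largest rise kept its call in all 16 alternatives, and the rises of 2.64 and 2.12 lost it in 1 of 16 and 2 of 17. The others were less stable. The rise of 1.41 was lost in 12 of 18 alternatives, that of 2.14 in 11 of 16, 2.35 in 10 of 16, 2.06 in 9 of 16 and 1.81 in 8 of 16. In the RefSeq annotation 9 of the 28 peaks lie beyond the end of the gene, although the authors' table labels them as its 3′ UTR. The rises of 2.64, 1.41 and 1.81 are among these peaks.

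Slc38a2, the sodium-coupled neutral amino acid transporter SNAT2, had 2 peaks in its 5′ UTR with 669 bases between them. One fell from 19.1, 17.4 and 23.2 to 3.27, 1.44 and 0 (by 3.25, SE 0.69, limma adjusted p = 0.00284). The other, with an 8-base miR-194-5p match, rose from 0, 5.80 and 0 to 8.72, 7.22 and 12.9, on 2 WT reads (depth-scaled ratio 6.79, 95% interval 1.80 to 57.3). Its call was lost in 8 of 16 alternatives. In the 3′ UTR, a peak with 8-base matches to the miR-200c-3p family and to miR-7-5p rose from 53.1, 49.3 and 61.9 to 98.2, 117 and 116 (1.00, SE 0.32, limma adjusted p = 0.0225). That call was lost with edgeR, with DESeq2, without a variance trend and without G12D library 2 or 3, with adjusted p up to 0.376. The Slc38a2 peak with the most reads, also in the 3′ UTR, held 82.8, 28.98 and 139 in WT and 108, 231 and 69.7 in G12D. Its groups overlapped and it was not called (0.78, SE 0.57, limma adjusted p = 0.266).

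The apical exchangers of sodium and chloride showed the same pattern at low counts. Slc9a3, the sodium-hydrogen exchanger NHE3, had an intron peak at 0, 2.90 and 2.58 in WT and 16.4, 38.2 and 27.3 in G12D (3.48, SE 0.71, limma adjusted p = 0.00232), with an 8-base let-7 match and 3 WT reads. Another intron peak, at 33.97, 0 and 56.7 in WT and 0, 0.62 and 0 in G12D, fell by 3.43 on the log2 scale (limma adjusted p = 0.0343) although WT library 2 also held no read, and this call was lost in 8 of 16 alternatives. Slc26a3, the chloride-bicarbonate exchanger DRA, rose at a peak of the asterisked 3′ UTR class from 2.12, 0 and 5.16 to 20.7, 41.1 and 42.4 (3.67, SE 0.73, limma adjusted p = 0.00201) and fell at one of the asterisked 5′ UTR class from 12.7, 5.80 and 34.8 to 0, 1.44 and 0.72 (by 3.21, SE 0.74, limma adjusted p = 0.00419). Slc13a2, a sodium-linked carrier of citrate and succinate, fell at an intron peak from 29.7, 5.80 and 23.2 to 0, 0.21 and 0 (by 4.01, SE 0.68, limma adjusted p = 0.000847), on 1 G12D read, and rose at 2 exon peaks (1.78 and 2.91), the smaller rise being lost in 7 of 16 alternatives.

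**Figure D3:**
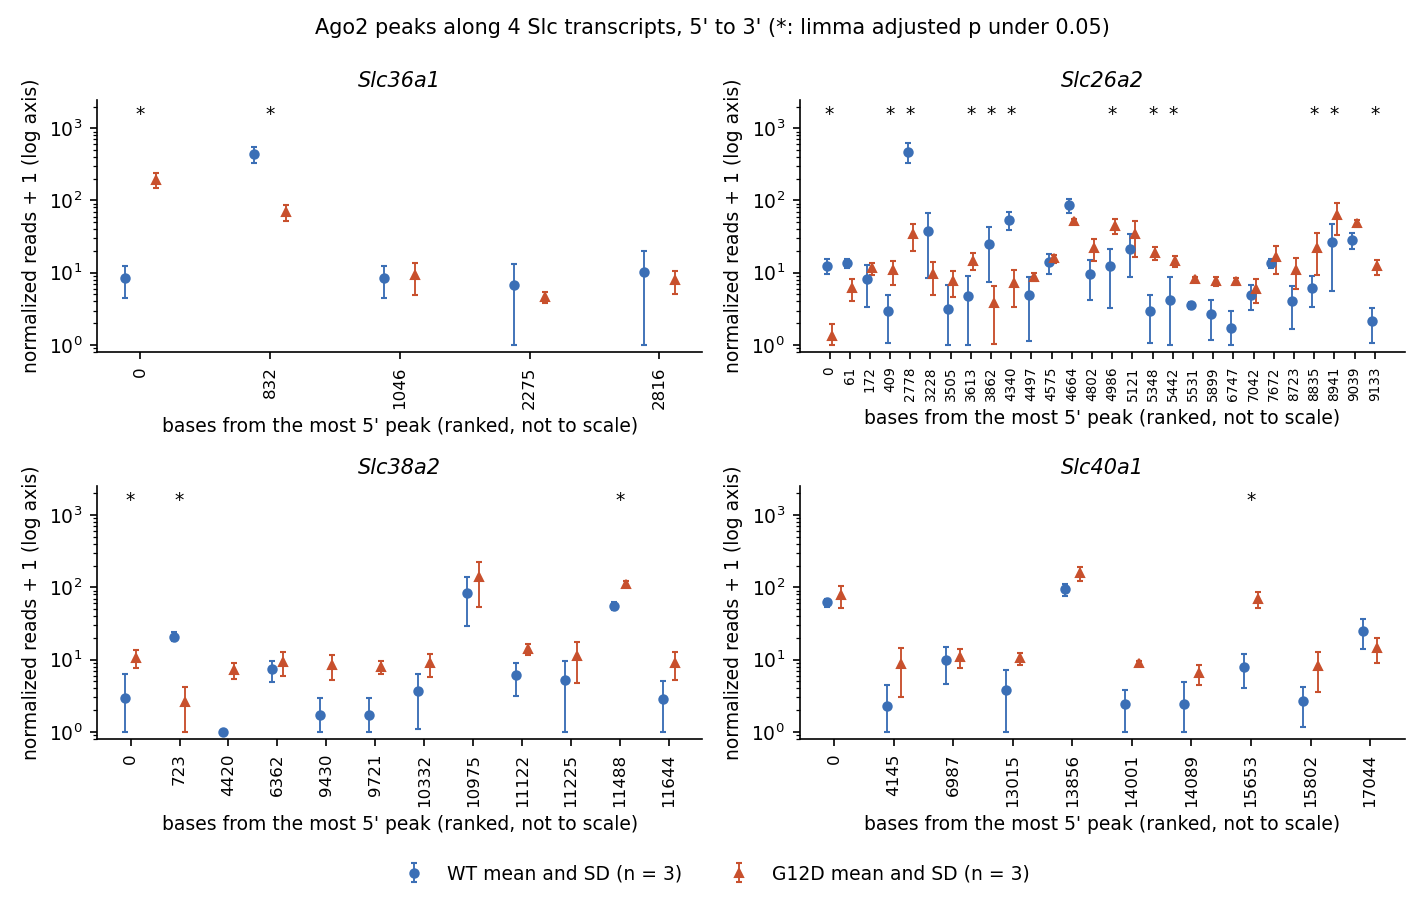
Mean and SD (n = 3) of normalized reads + 1 (y axis, log scale) in WT (circles) and G12D (triangles) for every Ago2 peak of 4 Slc genes, ordered 5′ to 3′ and labelled by distance in bases from the most 5′ peak. Asterisks mark a limma adjusted p under 0.05. In Slc36a1 the first peak rises and the next falls. In Slc26a2 the tallest WT peak falls, and the weaker peaks on either side of it include both called rises and called falls.

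Summing all peaks of a gene gave 1 value per gene and library. Of 60 Slc genes tested 23 (38.3%) were higher and 6 (10%) lower, beside 35.8% and 14.2% of all genes tested, with medians of 0.93 and 0.81. With the same total per library 29 of 61 tested were higher and 5 lower, beside 42.8% and 12.8% of all genes tested. edgeR gave 14 and 11 (25.9% and 22.2% of all genes), DESeq2 13 and 11 (25.3% and 21.2%), and quantile normalization 11 and 10 (23.7% and 20.3%). Leaving out G12D library 2 or 3 left 14 higher, beside 24.7% and 23.6% of all genes. Without G12D library 2 there were 2 lower (10.6% of all genes). WT library 3 and G12D library 1 each left 3 lower when removed, beside 11.6% and 10.9% of all genes. The genes not tested were Slc16a3, Slc17a4, Slc30a7, Slc35a3, Slc35b3, Slc39a1 and Slc8a1.

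Among the lower genes were Slc37a2, Slc25a10, Slc4a2, Slc25a3 and Slc26a2. Slc26a2 summed to 1032, 658 and 892 in WT and 395, 574 and 508 in G12D, lower in every G12D library (-0.80, SE 0.27, limma adjusted p = 0.0308). That call was lost on leaving out any library other than WT library 2, and the limma adjusted p then ranged up to 0.128. Slc25a3 was lost in the same 5 cases, and Slc4a2 without WT library 1 or 3 or G12D library 1 or 2.

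Slc16a1 rose as a gene from 50.8 ± 5.52 to 194 ± 51.04 (SD, n = 3 each), by 1.89 on the log2 scale (SE 0.29, limma adjusted p = 0.000556). Slc22a23 rose from 30.8 ± 18.5 to 152 ± 18.2 (SD, n = 3 each; 2.43, SE 0.42, limma adjusted p = 0.000961). Slc40a1 summed to 199.6, 185 and 223 in WT and 272, 393 and 425 in G12D (0.82, SE 0.26, limma adjusted p = 0.0237), and Slc38a2 to 178, 125 and 242 in WT and 285, 429 and 265 in G12D (0.86, SE 0.31, limma adjusted p = 0.0400). In both genes the groups did not overlap, but edgeR gave an adjusted p of 0.292 and 0.308. Slc13a2 (0.05) and Slc26a3 (0.03) stayed near 0 as sums while their peaks moved apart, and both sums turned negative with quantile normalization, edgeR and DESeq2.

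**Figure D4:**
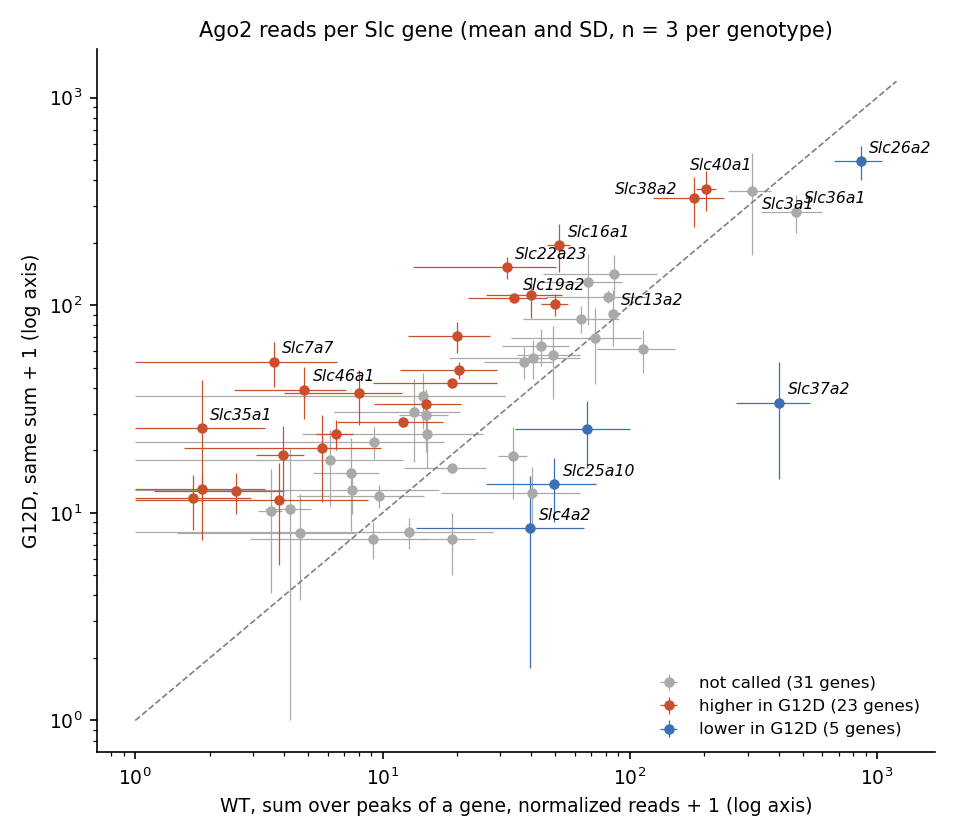
Mean and SD (n = 3 per genotype) of the summed peaks of 59 of the 60 tested Slc genes in WT (x axis) and G12D (y axis), as normalized reads + 1 on log axes. The 23 higher genes lie above the dashed line of equality, and of the 5 lower genes shown Slc37a2 lies farthest below it.

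Grouped by seed, let-7 matched the most Slc peaks, 20 peaks in 20 genes, 10.9% of the members beside 8.33% of all labelled peaks. Of 16 tested let-7 peaks 6 were higher and 4 lower, beside 35.4% and 9.79% of all tested peaks with a let-7 match. The higher ones were in Slc7a7, Slc9a3, Slc46a1, Slc25a13, Slc4a7 and Slc7a6, and the lower ones in Slc26a2, Slc37a2, Slc16a5 and Slc8b1. The miRNA let-7b-5p itself held 4650, 3268 and 5040 normalized reads in WT and 4071, 5454 and 3430.1 in G12D (-0.00, SE 0.23, limma adjusted p = 0.996).

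For the next families the counts are given beside the shares higher and lower among all tested peaks with the same match. Of 6 tested miR-22-3p peaks 1 was higher and 1 lower (29.4% and 8.09%), of 5 of the miR-15/16 family 1 and 0 (33.2% and 11.2%), and of 4 of the miR-200c-3p family 2 and 1 (42.4% and 8.3%). Of 6 tested miR-24-3p peaks 0 were called (29.5% and 10.7%), and of 6 of the miR-17 family 1 was higher and 1 lower (32.1% and 8.4%). Of 5 tested miR-194-5p peaks 3 were higher and 0 lower (46.8% and 7.41%). Of 4 tested miR-29-3p peaks 0 were higher and 2 lower, while 38.9% of all miR-29-3p peaks were higher and 9.26% lower. With 4 to 6 tested members each, these counts describe the peaks named and no more. The 3 risen miR-194-5p peaks were in Slc3a2, Slc38a2 and Slc26a2. The 2 fallen miR-29-3p peaks were in Slc37a2 and Slc4a2. The miR-7-5p family lies outside the 8 families with most Slc peaks and was named after its values were seen. All 4 tested miR-7-5p peaks had a higher mean in G12D and 3 of them were called, in Slc38a2, Slc44a1 and Slc7a6. Among all tested miR-7-5p peaks 41.5% were higher and 4.62% lower. The Slc44a1 call was the least stable of the 3, lost in 12 of 16 alternatives. Other families with 4 Slc peaks were miR-141-3p (2 higher and 0 lower of 3 tested), miR-26-5p (1 and 0 of 2) and miR-183-5p (0 and 0 of 2). Among all tested peaks with those matches 30.5%, 31.3% and 45.5% were higher and 13.7%, 16.4% and 4.55% lower.

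In the miRNA libraries, miR-194-5p held 19625, 24797 and 15668 normalized reads in WT and 22875, 33180.3 and 30335 in G12D (0.53, SE 0.18, limma adjusted p = 0.0339), with overlapping groups. That call was lost with edgeR, DESeq2, equal library totals or quantile normalization, without a filter, without a variance trend, and without WT library 3, G12D library 2 or G12D library 3. miR-22-3p held 5359, 3556 and 4265 in WT and 6218, 6957 and 6052 in G12D, without overlap but short of the threshold (0.56, SE 0.21, limma adjusted p = 0.0585). Of the other leading miRNAs none was called: miR-16-5p (0.07), miR-200c-3p (0.25), miR-24-3p (0.24), miR-93-5p (0.17) and miR-29a-3p (0.37). Less abundant members of a family can differ from its leading miRNA. In the miR-200c-3p family miR-200b-3p was called higher with overlapping groups (0.56, SE 0.19, limma adjusted p = 0.0364). The other member, miR-429-3p, was not called (0.36, SE 0.20, limma adjusted p = 0.227). Of all 254 miRNAs tested 9.06% were higher and 6.69% lower. No link between a miRNA's level and the change at its sites was tested.

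**Figure D5:**
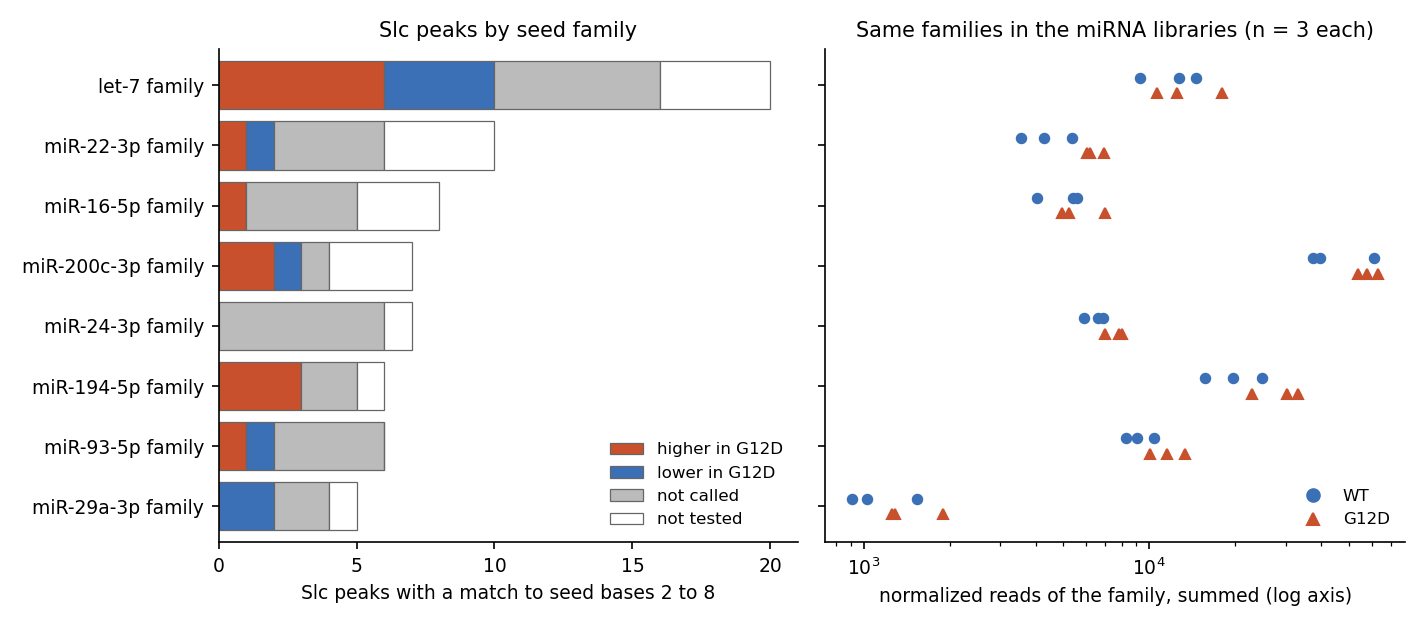
Left, Slc peaks with a match to seed bases 2 to 8 for the 8 families with most Slc peaks (x axis, number of peaks), split into higher, lower, not called and not tested. Families are named by their most abundant miRNA, so the miR-17 family stands as miR-93-5p and the miR-15/16 family as miR-16-5p. Right, summed normalized reads (x axis, log scale) of the same families in each miRNA library, WT circles and G12D triangles. The let-7 row holds 20 peaks with calls in both directions, and its miRNA reads overlap between genotypes.

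As a share of all reads in merged peaks, Slc peaks took 2.04%, 2.11% and 2.16% in the WT libraries and 2.24%, 2.97% and 2.70% in the G12D libraries. The means were 2.10% ± 0.063 and 2.64% ± 0.369 (SD, n = 3 each), and the groups did not overlap. The exact two-sided permutation test gave p = 0.1, the smallest that 3 against 3 can give. With rRNA and snRNA peaks left out of the total the means were 2.92% and 3.11% and the groups overlapped (exact permutation p = 0.3), and over peaks in both lists they were 2.19% and 2.24% (exact permutation p = 0.8). Within the Slc reads, Slc26a2 took 21.6% ± 1.92 in WT and 11.5% ± 1.29 in G12D (SD, n = 3 each), and Slc37a2 10.4% ± 4.29 and 0.749% ± 0.358 (SD, n = 3 each).

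Other genes of colonic ion, water and drug transport give a measure of the surroundings. Of a list of 56 such genes 29 had peaks, 93 in all, and of 81 tested peaks 37 were higher and 9 lower, with a median log2 fold change of 1.17. Among them Atp1b1, a beta subunit of the sodium pump, fell as a gene sum from 2480 to 1116 in mean normalized reads (limma adjusted p = 0.00847), while at the level of single peaks 8 of 12 rose and 2 fell. Car1, a colonocyte carbonic anhydrase, rose from 133 to 618, and the water channel Aqp8 from 42.1 to 155 (limma adjusted p = 0.000146 and 0.00173).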

How the data were processed

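The members and gene lists were chosen with earlier results of these data known. Per the submitters' processing notes, STAR 2.5.2b and DESeq2 were used by the authors, and mm10 and GRCm38 are the builds named. No source used here names the peak caller, its filters, or whether libraries were pooled for it. The deposited peak and miRNA tables hold a normalized signal, reads divided by 1 factor per library by the authors. Dividing each column by its smallest step gave whole reads for 100% of values (within 0.01), and these were used for edgeR 4.0.16 and DESeq2 1.42.0. Deposited log2 fold changes, p-values and Wald scores are the authors' own, as is the score column of the peak lists, which was not used here. The authors' seed matches, position classes and gene labels were taken as given. All 67 Slc symbols and 408 of 459 miRNAs matched RefSeq.

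limma 3.58.1 (R 4.3.3) was fitted to log2(normalized reads + 1) with a variance trend over all peaks, gene sums or miRNAs with a mean of at least 5, 5 and 10, without a replicate block; the fits were tested on simulated counts. Peaks in both lists overlap a peak of each list by at least 1 base. A fold change on the log2(value + 1) scale understates the change of low peaks. Shares were compared with an exact permutation test, and 95% intervals for ratios of pooled reads are exact binomial and cover counting error only. Named were the 10 separated called peaks with the largest change in each direction, the 10 peaks with the highest mean (45 to 67 bases wide), the 5 genes with most tested peaks, the 2 genes with the highest sum in each list, the 5 genes with the lowest diffSplice p, and the 8 seed families with most Slc peaks. Other genes, miRNAs and seed families were named after their values were seen. Results of 2 genes are not reported here, although counts include them. Alternatives were the pseudocount (0.5, 5), the filter (none, 20), the scaling, the variance trend, the block, edgeR, DESeq2, peaks in both lists, each library left out and, chosen after seeing the data, both libraries numbered 2 left out and, for ratios of pooled reads, which weight libraries by depth, G12D library 2 left out.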

Additional observations from a re-analysis of the deposited data

How the results depend on the processing

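Of the 57 called peaks, 15 of 41 higher and 10 of 16 lower were called under every alternative, and of the called gene sums 9 of 23 and 2 of 6. No such share over all peaks or all genes is given here. Median log2 fold changes of peaks were 0.67 with a pseudocount of 5, 1.37 with no filter, 0.72 with a mean of at least 20, 1.19 with equal library totals, 0.19 with quantile normalization, 0.29 with edgeR, 0.49 with DESeq2 and -0.39 for peaks in both lists; those of gene sums were 0.70 with a mean of at least 20, 1.11 with equal totals, 0.57 with quantile normalization, 0.58 with edgeR and 0.59 with DESeq2. Peaks called higher numbered 57 (15 lower) with equal totals, 64 with no filter, 12 (and 10 lower) with a mean of at least 20, 22 with quantile normalization (23 lower), 23 with edgeR (26 lower), 23 with DESeq2 (23 lower) and 4 (8 lower) when fitted on peaks in both lists alone. Gene sums called higher numbered 14 with a mean of at least 20, 11 (10 lower) with quantile normalization, 14 (11 lower) with edgeR and 13 (11 lower) with DESeq2. With a mean of at least 20, 3 genes had unequal peaks, and over peaks in both lists the share of Slc reads differed by 0.0519 percentage points. Filters and the list restriction change which peaks are tested; otherwise the cause was not tested.

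Leaving out each library in turn gave 21 to 43 peaks higher and 11 to 19 lower with medians of 0.92 to 1.09, 14 to 24 gene sums higher and 2 to 8 lower with medians of 0.87 to 1.01, 7 to 12 genes with unequal peaks, and a share difference of 0.367 to 0.731 percentage points. Over all tested peaks these fits called 22.0% to 36.8% higher and 9.76% to 14.5% lower. Over all gene sums they called 23.6% to 36.1% higher and 10.6% to 16.6% lower. Without both libraries numbered 2, 31 peaks were higher and 18 lower, beside 25.3% and 12.2% of all tested peaks. Some uncalled log2 fold changes turned sign. These were not all near 0 in the main fit, where the Slc38a2 peak with most reads was at 0.78, the Slc35d2 peak at 0.54 and the Slc9a3 sum at 0.52. The Slc3a1 peak was -0.40 with edgeR, -0.20 with DESeq2 and -0.33 to 0.32 over left-out libraries, the Slc35d2 peak -0.10 with edgeR, and the Slc38a2 peak with most reads -0.30 without both libraries numbered 2. With quantile normalization, edgeR and DESeq2 the sums were -0.11, -0.36 and -0.32 for Slc13a2, -0.13, -0.52 and -0.46 for Slc26a3 and -0.0088, -0.22 and -0.18 for Slc5a8, and left-out libraries gave -0.18 to 0.23, -0.51 to 0.42 and -0.0814 to 0.38. Slc26a3 was -0.74 without both libraries numbered 2, the Slc3a1 sum -0.27 with edgeR, -0.22 with DESeq2 and -0.29 to 0.34 over left-out libraries, Slc9a3 -0.0223 with edgeR, and Slc39a4 0.0281 with equal totals and -0.43 to 0.11 over left-out libraries. With equal totals and quantile normalization miR-16-5p was -0.29 and -0.0674, miR-200c-3p -0.11 and -0.29, miR-24-3p -0.12 and -0.10, and miR-93-5p -0.20 and -0.0789. With edgeR miR-16-5p was -0.15 and miR-93-5p -0.0423; miR-16-5p was -0.0087 with DESeq2, -0.16 without both libraries numbered 2 and -0.10 to 0.26 over left-out libraries, and let-7b-5p -0.19 to 0.15.

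A replicate block gave 43 peaks higher and 17 lower (36.7% and 13.3% of all tested peaks). It gave 21 gene sums higher and 7 lower (35.6% and 14.1% of all genes tested), and 10 Slc genes with unequal peaks. Deviations of same-numbered mRNA libraries from their group means correlated at 0.0415, -0.0357 and -0.0076, beside -0.0574 to 0.0713 for differently numbered ones. For same-numbered miRNA libraries the values were -0.0003, -0.42 and -0.32, beside -0.21 to 0.43. With 3 libraries per genotype these values cannot decide whether the numbers pair the libraries. Of the 183 Slc peaks 106 had a mean under 10 normalized reads, and 18 reached 50, so most values rest on few reads, above all in the shallower WT libraries.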
